A study of Mus musculus with 9 samples.

Results

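The messenger RNA levels of 10 genes of the autophagy machinery were followed in macrophages that had been grown in culture from mouse bone marrow. The 10 genes were taken by name, as the rows of the count table whose mouse Ensembl identifiers map to Sqstm1, Map1lc3a, Map1lc3b, Gabarap, Gabarapl1, Gabarapl2, Ulk1, Becn1, Atg5 and Atg7. All 10 were found among 22001 genes in the table, and all 10 passed the filter on low counts, which kept 11469 genes for testing. The macrophages came from C57BL6 mice and were cultured for 6 h in 3 conditions with 3 libraries each. The 3SL group received Pam3CSK4 at 100 µg/ml and 3SL at 100 µl/ml, and its libraries are coded A2plus, B2plus and C2plus. The Pam3CSK4 group received Pam3CSK4 at 100 µg/ml without 3SL, and its libraries are coded D1, D2 and D3. Its treatment label reads Pamc3, while that of the 3SL group reads Pamc4-CSL and the titles of that group read Pamc4-3SL. The treatment labels alone therefore do not settle that both groups received the same ligand. The untreated group received PBS, and its libraries are coded A2, B2 and C2. Pam3CSK4, a lipopeptide made by synthesis, is a ligand of Toll-like receptors on these cells. From the series title 3SL is read as 3'-sialyllactose, a sugar of milk, whose dose is stated as a volume, so the amount is unknown. No sample label gives separate animals or cultures for the libraries of a group, so each p-value rests on differences among these libraries alone, and these may be technical.

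Autophagy encloses cytoplasm, damaged organelles or bacteria in a double membrane that fuses with lysosomes. The ULK1 kinase complex starts the process, the Beclin 1 complex makes the lipid signal on the forming membrane, and the ATG7 and ATG5 enzyme systems attach ATG8-family proteins (the LC3 and GABARAP proteins) to its lipid. Cargo receptors such as p62, the product of Sqstm1, bind both the cargo and the ATG8-family proteins and are degraded with the cargo. In macrophages the same machinery limits intracellular bacteria and inflammasome activity, and Sqstm1 is a known transcriptional target of NRF2 and of inflammatory signalling. Messenger RNA levels do not measure autophagic flux, since most of these proteins are regulated by lipidation, phosphorylation and degradation.

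Total counts per library ran from 7472482 to 43980309. The inflammatory genes went against the labels. Il1b, which encodes interleukin-1 beta, averaged 8136 ± 565 CPM (counts relative to library size) in the 3SL-labelled libraries, 6.23 ± 1.68 CPM in the Pam3CSK4-labelled libraries and 10160 ± 457 CPM in the untreated-labelled libraries (SD, n = 3 each). The groups are therefore called by their labels below, and every direction is between libraries so labelled. Of the variance among libraries, 90.4% lay on the leading principal component, which set the 3 Pam3CSK4-labelled libraries apart from the other 6. These 3 libraries also carry the letter D where the other 6 carry A, B or C, so the treatment label and whatever the letter stands for cannot be told apart. All 9 macrophage markers examined, among them Csf1r, Adgre1 and Lyz2, were detected. In the Pam3CSK4-labelled against the untreated-labelled libraries 2 of them, Cd68 and Mertk, were higher and 6 were lower (3 and 3 without scaling beyond library size), so their sum, most of it Lyz2, does not stand for each marker. Their summed level was 23614 to 24245 CPM in the 3SL-labelled, 16613 to 17057 CPM in the Pam3CSK4-labelled and 24451 to 24976 CPM in the untreated-labelled libraries. The next highest marker list, of neutrophil and progenitor genes, also split, with 3 of the 7 tested genes higher (Elane, Mpo and Prtn3) and 4 lower in the same comparison (3 and 3 without scaling beyond library size). Its sum, most of it S100a8 and S100a9, was 424 to 464 CPM in the 3SL-labelled, 320 to 412 CPM in the Pam3CSK4-labelled and 525 to 559 CPM in the untreated-labelled libraries. In bulk samples fewer cells of a type and less RNA per cell cannot be told apart, and the part of these shifts in the results below was not tested.

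The largest difference among the 10 genes was in the cargo receptor gene Sqstm1, whose level in the Pam3CSK4-labelled libraries was 0.369 times that of the untreated-labelled libraries. The genes for the earlier steps and for the ATG8 family moved by less, and in both directions. Atg7, Ulk1 and Map1lc3b were higher in the Pam3CSK4-labelled than in the untreated-labelled libraries, and Sqstm1, Gabarapl2, Atg5, Becn1 and Gabarap were lower, in a comparison in which 75.0% of all tested genes were called. Between the 3SL-labelled and the untreated-labelled libraries none of the 10 genes passed the test, against 8.94% of all tested genes. Levels below are CPM on library sizes scaled by the TMM method, in the order of the library codes given above, and each call is an adjusted p under 0.05 in the quasi-likelihood test of edgeR, adjusted over all 11469 genes by the Benjamini-Hochberg method.

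**Figure D1:**
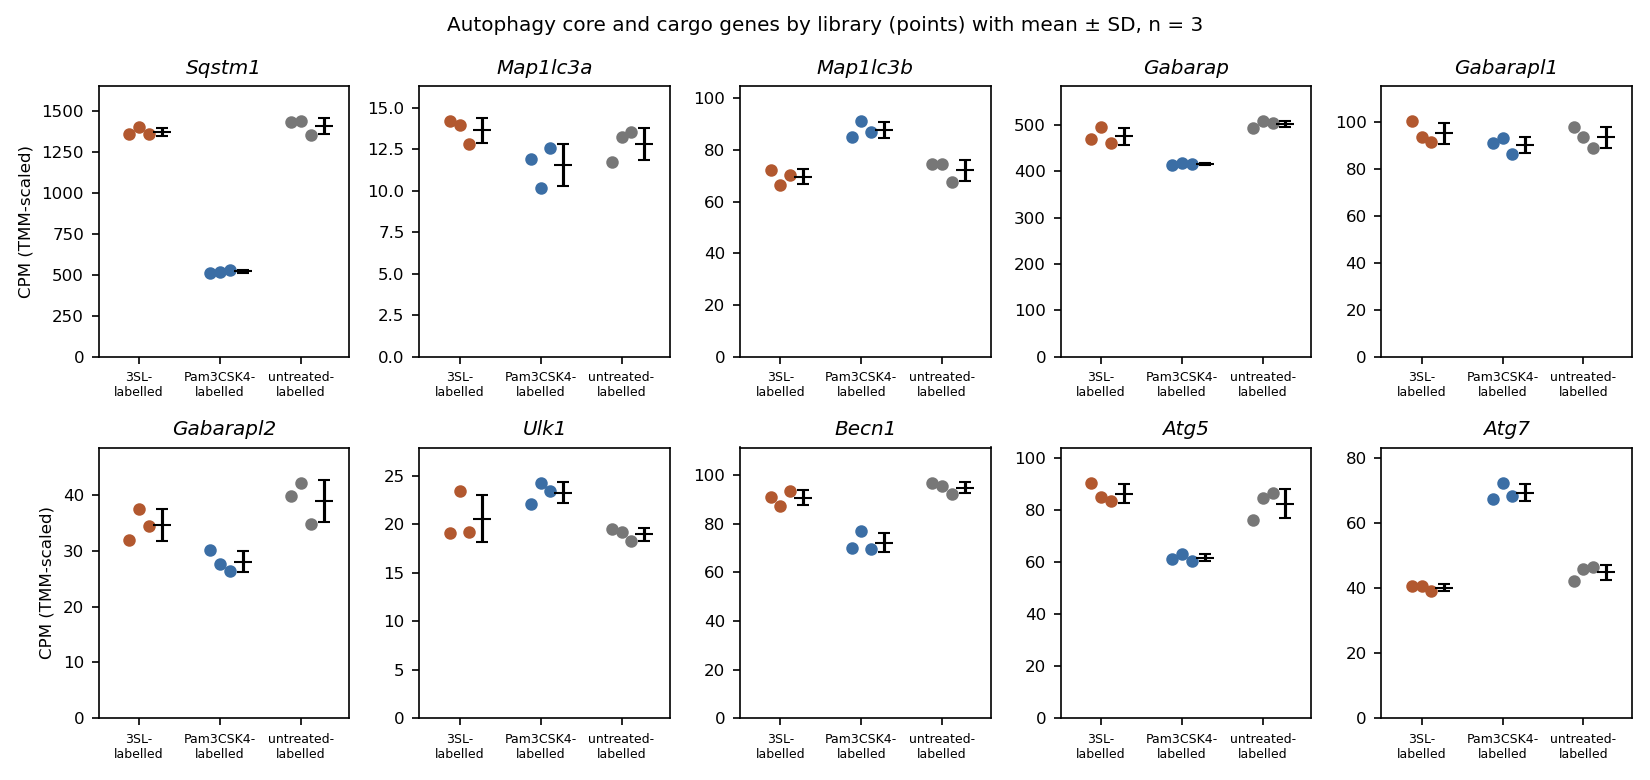
Level of each of the 10 genes in CPM (vertical axes, each from 0 to its own maximum) in the 3 libraries of each group; points are libraries, and the bar beside them is the mean ± SD (n = 3). Sqstm1 stood at 512 to 532 CPM in the Pam3CSK4-labelled libraries, below all other libraries, and Atg7 stood at 67.4 to 72.4 CPM there, above all other libraries.

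Sqstm1 (ENSMUSG00000015837, chr11:50199366-50210827 on the minus strand in GRCm38) encodes p62, which carries ubiquitinated proteins, mitochondria and bacteria into autophagosomes and also binds KEAP1. It had 1356, 1402 and 1360 CPM in the 3SL-labelled libraries, 512, 517 and 532 CPM in the Pam3CSK4-labelled libraries and 1435, 1436 and 1354 CPM in the untreated-labelled libraries. All 3 Pam3CSK4-labelled libraries were lower than the other 6 with no overlap, while the 3SL-labelled and untreated-labelled ranges overlapped. The log2 change of the Pam3CSK4-labelled against the untreated-labelled libraries was -1.44 (SE 0.0303, adjusted p = 6.35e-25). Of all tested genes, 14.9% differed by more than Sqstm1 in that comparison. For the 3SL-labelled against the Pam3CSK4-labelled libraries the log2 change was 1.40 (SE 0.0305, adjusted p = 1.63e-24), with 14.7% of genes differing by more. Between the 3SL-labelled and the untreated-labelled libraries it was -0.04 (95% interval -0.10 to 0.02, adjusted p = 0.51). Exons of Sqstm1 share 580 bases, 17.3% of its exonic length, with the gene Mrnip on the opposite strand, and reads of the pair cannot be told apart without strand. Mrnip itself stood at 0.281 to 0.587 CPM in the 3SL-labelled, 0.88 to 1.38 CPM in the Pam3CSK4-labelled and 0.317 to 0.348 CPM in the untreated-labelled libraries, far under the Sqstm1 level. That does not show that Sqstm1 lost no reads, since reads of the shared bases could have been left out of both counts.

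Ulk1 (ENSMUSG00000029512, chr5:110784488-110810097, minus strand) encodes the kinase that starts autophagy when mTORC1 is inactive. It had 19.1, 23.4 and 19.2 CPM in the 3SL-labelled libraries, 22.1, 24.3 and 23.5 CPM in the Pam3CSK4-labelled libraries and 19.5, 19.2 and 18.2 CPM in the untreated-labelled libraries. All 3 of the Pam3CSK4-labelled libraries lay above the untreated-labelled ones without overlap, but library B2plus of the 3SL-labelled group reached into their range. The log2 change of the Pam3CSK4-labelled against the untreated-labelled libraries was 0.29 (SE 0.0796, adjusted p = 0.00193). Against the Pam3CSK4-labelled libraries, the 3SL-labelled libraries gave -0.17 (SE 0.0891, adjusted p = 0.0845); without B2plus this became -0.28 (adjusted p = 0.0118). It also passed the threshold without scaling beyond library size, at -0.45 (adjusted p = 5.64e-05), and with counts thinned to equal depth, at -0.25 (adjusted p = 0.0217).

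Becn1 (ENSMUSG00000035086, chr11:101285952-101302286, minus strand) encodes Beclin 1, the scaffold of the class III phosphatidylinositol 3-kinase complex. It had 91.1, 87.4 and 93.6 CPM in the 3SL-labelled, 70.1, 76.8 and 69.6 CPM in the Pam3CSK4-labelled and 96.8, 95.4 and 92.4 CPM in the untreated-labelled libraries. Every Pam3CSK4-labelled library was below every other library. The log2 change was -0.39 for the Pam3CSK4-labelled against the untreated-labelled libraries (SE 0.047, adjusted p = 2.12e-08) and 0.32 for the 3SL-labelled against the Pam3CSK4-labelled libraries (SE 0.0506, adjusted p = 2.25e-06). When libraries were scaled by size alone both differences lost the call, at -0.08 and 0.05. Becn1 shares 43.9% of its exonic length with Cntd1 on the opposite strand. Cntd1 stood at no more than 0.203 CPM in the 3SL-labelled, 0.459 CPM in the Pam3CSK4-labelled and 0.38 CPM in the untreated-labelled libraries. Without strand, reads of the shared bases could have been left out of both counts, so these low levels do not show that Becn1 lost none.

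Atg5 and Atg7 act in the same conjugation pathway and moved in opposite directions. ATG7 is the E1-like enzyme that activates both ATG12 and the ATG8-family proteins, and ATG5, joined to ATG12 and bound to ATG16L1, directs the attachment of ATG8-family proteins to the membrane lipid. Atg5 (ENSMUSG00000038160, chr10:44268358-44364291, plus strand) had 90.4, 84.9 and 83.4 CPM in the 3SL-labelled, 61.3, 63.1 and 60.5 CPM in the Pam3CSK4-labelled and 76.1, 84.7 and 86.4 CPM in the untreated-labelled libraries. Atg7 (ENSMUSG00000030314, chr6:114643097-114860614, plus strand) had 40.8, 40.7 and 39.0 CPM in the 3SL-labelled, 67.4, 72.4 and 68.5 CPM in the Pam3CSK4-labelled and 42.2, 45.8 and 46.7 CPM in the untreated-labelled libraries. Libraries of the Pam3CSK4-labelled group were thus the lowest 3 for Atg5 and the highest 3 for Atg7. For the Pam3CSK4-labelled against the untreated-labelled libraries the log2 change was -0.42 for Atg5 (SE 0.051, adjusted p = 3.42e-08) and 0.63 for Atg7 (SE 0.054, adjusted p = 3.17e-11). For the 3SL-labelled against the Pam3CSK4-labelled libraries it was 0.48 for Atg5 (SE 0.0545, adjusted p = 1.14e-08) and -0.79 for Atg7 (SE 0.0613, adjusted p = 3.64e-12). Without scaling beyond library size the Atg5 difference between the Pam3CSK4-labelled and untreated-labelled libraries was -0.10 and lost the call (adjusted p = 0.0664), while Atg7 kept its direction and call under every scaling tried.

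The upstream sequence of the pair that moved apart, and of the gene with the largest change, was read from RefSeq promoters on GRCm38.p6 for 8 of the 10 genes; Map1lc3a and Becn1 had no entry. The search covered 4 short motifs on both strands in the 250 bases before and 50 after each start. They were the CACGTG E-box bound by TFEB, TFE3 and MITF among others, the antioxidant response element core TGACNNNGC, the CLEAR palindrome, which contains the E-box, and the FOXO core GTAAACA. The sequences of Atg5 and Atg7 are shown because both hold the CACGTG E-box, in capitals, although their levels differed in opposite directions. For Sqstm1 a stretch without annotated exons, the one nearest its start, is shown, and neither it nor the rest of the Sqstm1 window holds any of the 4 motifs. Each is written 5′ to 3′ on the gene's own strand, at chr10:44268089-44268338 (plus) for Atg5, chr6:114670846-114671095 (plus) for Atg7 and chr11:50210828-50210889 (minus) for Sqstm1.
Atg5: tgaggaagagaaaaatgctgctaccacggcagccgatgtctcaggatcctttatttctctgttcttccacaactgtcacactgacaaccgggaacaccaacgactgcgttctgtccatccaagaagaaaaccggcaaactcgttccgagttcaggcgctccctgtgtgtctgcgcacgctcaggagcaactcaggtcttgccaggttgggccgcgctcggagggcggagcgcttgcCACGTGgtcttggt
Atg7: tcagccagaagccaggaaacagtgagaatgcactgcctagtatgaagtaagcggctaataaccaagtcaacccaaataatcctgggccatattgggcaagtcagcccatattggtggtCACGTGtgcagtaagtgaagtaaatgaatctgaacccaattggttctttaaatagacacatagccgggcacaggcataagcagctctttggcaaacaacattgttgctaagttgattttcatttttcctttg
Sqstm1: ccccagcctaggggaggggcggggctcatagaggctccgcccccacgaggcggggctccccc
The E-box lay at bases -14 to -9 before the Atg5 start and -132 to -127 before the RefSeq Atg7 start. In GENCODE M21 no exon of any gene falls in either window, and the Atg7 window lies inside the gene, downstream of the first exon of its longest form. Among all 32851 RefSeq promoters of the same 300 bases, 7.15% hold CACGTG, 12.4% hold TGACNNNGC, 0.326% hold the CLEAR palindrome and 3.65% hold GTAAACA. The single other match among the 8 genes was TGACTCGGC in Map1lc3b, at bases 4 to 12 after its start. These matches describe letters in a window and do not show binding by any factor.

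The 5 ATG8-family genes encode the small ubiquitin-like proteins that coat the autophagosome membrane, recruit cargo receptors and promote fusion with lysosomes. Gabarap (ENSMUSG00000018567, chr11:69991143-69994951, plus strand) had 470, 495 and 461 CPM in the 3SL-labelled, 414, 418 and 415 CPM in the Pam3CSK4-labelled and 494, 508 and 503 CPM in the untreated-labelled libraries. Gabarapl2 (ENSMUSG00000031950, chr8:111940703-111953612, plus strand) had 31.9, 37.5 and 34.5 CPM in the 3SL-labelled, 30.1, 27.6 and 26.4 CPM in the Pam3CSK4-labelled and 39.8, 42.2 and 34.8 CPM in the untreated-labelled libraries. For both genes every Pam3CSK4-labelled library was below every other library. Map1lc3b (ENSMUSG00000031812, chr8:121590361-121598760, plus strand), which encodes the LC3B protein used as the usual autophagosome marker, had 72.1, 66.4 and 70.2 CPM in the 3SL-labelled, 85.0, 91.1 and 86.9 CPM in the Pam3CSK4-labelled and 74.5, 74.5 and 67.5 CPM in the untreated-labelled libraries. It went the other way, with every Pam3CSK4-labelled library above all others.

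For the Pam3CSK4-labelled against the untreated-labelled libraries the log2 changes of these 3 genes were -0.27 for Gabarap (SE 0.0323, adjusted p = 2.1e-08), -0.50 for Gabarapl2 (SE 0.0755, adjusted p = 1.04e-06) and 0.27 for Map1lc3b (SE 0.0481, adjusted p = 1.34e-05). For the 3SL-labelled against the Pam3CSK4-labelled libraries they were 0.19 for Gabarap (adjusted p = 9.22e-06), 0.32 for Gabarapl2 (adjusted p = 0.00152) and -0.34 for Map1lc3b (adjusted p = 2.19e-06). Without scaling beyond library size Gabarap reversed to 0.04 in the comparison with the untreated-labelled libraries and to -0.08 in the other, and Gabarapl2 lost its call in the other, at 0.04. The direction of Map1lc3b was the same under every scaling tried. At 95% identity or more over at least 100 bases, Gabarapl2 matches 3 processed pseudogenes and Map1lc3b matches 79 other genes, 8 of them pseudogenes. The longest Map1lc3b match, of 285 bases, is in the pseudogene Gm6054, and the longest in a protein-coding gene, of 193 bases, is in Vamp3. Some reads of Gabarapl2 and Map1lc3b could thus have been lost or shared in counting.

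Gabarapl1 and Map1lc3a did not pass the test in any comparison under the TMM scaling. Gabarapl1 (ENSMUSG00000030161, chr6:129533160-129542346, plus strand) had 100.5, 93.9 and 91.7 CPM in the 3SL-labelled, 91.3, 93.3 and 86.4 CPM in the Pam3CSK4-labelled and 98.1, 93.6 and 89.3 CPM in the untreated-labelled libraries, and the 3 groups overlapped. Map1lc3a (ENSMUSG00000027602, chr2:155276297-155278073, plus strand), which encodes LC3A, had 14.2, 14.0 and 12.8 CPM in the 3SL-labelled, 11.9, 10.2 and 12.6 CPM in the Pam3CSK4-labelled and 11.7, 13.2 and 13.6 CPM in the untreated-labelled libraries. The log2 change of the Pam3CSK4-labelled against the untreated-labelled libraries was -0.05 for Gabarapl1 (95% interval -0.15 to 0.04) and -0.16 for Map1lc3a (95% interval -0.37 to 0.04). The 3SL-labelled libraries lay above the Pam3CSK4-labelled ones for Map1lc3a without overlap, by 0.25 on the log2 scale (SE 0.113, adjusted p = 0.0512). That value passed the threshold without library D3 (adjusted p = 0.0269), without C2plus (adjusted p = 0.043) and with DESeq2's size factors (adjusted p = 0.0379). Without scaling beyond library size Gabarapl1 was instead higher in the Pam3CSK4-labelled than in the untreated-labelled libraries by 0.26 (adjusted p = 1.78e-05), and in the 3SL-labelled libraries it was lower than in the Pam3CSK4-labelled ones, at -0.20 (adjusted p = 0.000793). Gabarapl1 shares 28.3% of its exonic length with the non-coding gene 1700101I11Rik on the opposite strand, which is not analysed here.

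Levels of different genes were compared per length, as CPM per kilobase of each gene's principal transcript in GENCODE M21. Sqstm1 led in the 3SL-labelled libraries at 674 ± 12.4 and in the untreated-labelled libraries at 691 ± 23.1 CPM per kilobase (SD, n = 3 each), with Gabarap next at 352 ± 13.2 and 371 ± 5.03 in the same groups. In the Pam3CSK4-labelled libraries the order of the pair was the opposite, with Gabarap at 308 ± 1.57 and Sqstm1 at 255.5 ± 4.97 CPM per kilobase (SD, n = 3). The ranges of the pair did not overlap in any group, and the order was the same when the length of all exons was used. Gabarapl1 came after this pair in every group, at 52.4, 49.6 and 51.5 CPM per kilobase in the 3SL-labelled, Pam3CSK4-labelled and untreated-labelled libraries, and Ulk1 was last, at 3.95, 4.47 and 3.64 CPM per kilobase in the same groups. In between, Gabarapl2 and Becn1 overlapped in the 3SL-labelled libraries (20.7 and 20.8 CPM per kilobase) and likewise in the Pam3CSK4-labelled (16.7 and 16.5) and untreated-labelled libraries (23.2 and 21.7). With the length of all exons Gabarapl2 instead lay above Becn1 without overlap in every group. The means were then 14.9 and 12.8 in the 3SL-labelled, 12.05 and 10.2 in the Pam3CSK4-labelled and 16.7 and 13.4 in the untreated-labelled libraries. That length of Becn1 includes the bases shared with Cntd1, whose reads could have been lost in counting, so the order of the pair is not settled. Atg7 stood at 10.7 ± 0.262 CPM per kilobase in the 3SL-labelled, 18.5 ± 0.709 in the Pam3CSK4-labelled and 11.9 ± 0.630 in the untreated-labelled libraries, which was below Map1lc3a without overlap in the 3SL-labelled, above it in the Pam3CSK4-labelled and overlapping with it in the untreated-labelled libraries. With the length of all exons Atg7 and Map1lc3a overlapped in the Pam3CSK4-labelled libraries. By that length Atg7 was below Map1lc3a without overlap in the 3SL-labelled (5.77 and 11.6) and untreated-labelled libraries (6.44 and 10.9 CPM per kilobase). The place of Map1lc3b also depended on the length used, since its exons span 7517 bases in all and 2532 in the principal transcript.

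Within the ATG8 family the level per length was mostly Gabarap. It made up 75.7% ± 0.704 of the family's summed level in the 3SL-labelled, 73.4% ± 0.336 in the Pam3CSK4-labelled and 76.4% ± 0.903 in the untreated-labelled libraries (SD, n = 3 each). The share of Map1lc3b was 5.92% ± 0.390 in the 3SL-labelled, 8.26% ± 0.255 in the Pam3CSK4-labelled and 5.86% ± 0.283 in the untreated-labelled libraries (SD, n = 3 each). The Pam3CSK4-labelled libraries held the 3 highest Map1lc3b shares and the 3 lowest Gabarap shares. No other share set them apart from both other groups. Against the untreated-labelled libraries they did not overlap for Gabarapl1 (11.4% to 12.1% against 10.2% to 11.15%) or Gabarapl2 (3.79% to 4.28% against 4.31% to 5.095%). With the length of all exons Gabarapl2 did overlap there. The Map1lc3a share was 2.55% to 2.76% in the 3SL-labelled and 2.18% to 2.54% in the untreated-labelled libraries, without overlap. A share within a family does not depend on how libraries are scaled. With the length of all exons the Map1lc3b shares were 2.72% ± 0.182 in the 3SL-labelled, 3.84% ± 0.125 in the Pam3CSK4-labelled and 2.70% ± 0.133 in the untreated-labelled libraries, in the same order. No test was made on the shares; an exact permutation test of 3 against 3 libraries gives no two-sided p under 0.1.

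**Figure D2:**
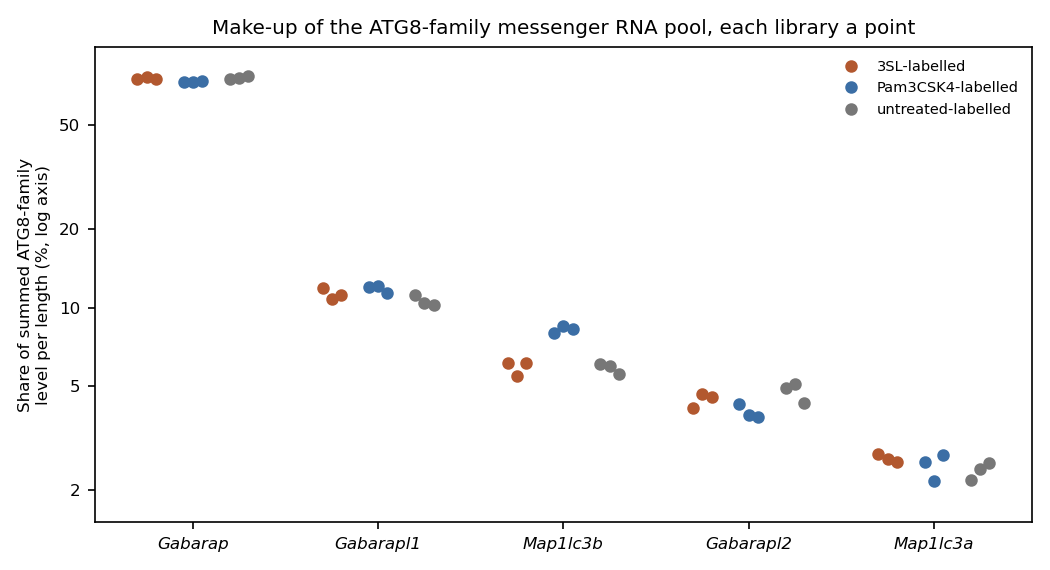
Share of each ATG8-family gene in the family's summed level per kilobase of principal transcript (vertical axis in percent, log scale), each point a library, with the 3SL-labelled, Pam3CSK4-labelled and untreated-labelled groups from left to right within each gene. Gabarap held 73.2% to 77.4% in all 9 libraries, and Map1lc3b held 8.01% to 8.52% in the Pam3CSK4-labelled libraries, above the other 6.

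In all, 8 of the 10 genes were called in the comparison of the Pam3CSK4-labelled with the untreated-labelled libraries, 3 higher and 5 lower. In that comparison 75.0% of all tested genes were called, with 39.0% higher and 35.9% lower, so the share called among the 10 is near the background. The 2 groups did not overlap for 8 of the 10 genes, against 76.0% of all tested genes. The median log2 change was -0.22 over the 10 genes and 0.03 over all tested genes, and the median size of the change was 0.34 for the 10 and 0.45 for all. By the size of the change, 14.9% of tested genes differed by more than Sqstm1, 38.2% by more than Atg7 and 46.1% by more than Gabarapl2, and for each of the other 7 members this share was between 52.9% and 92.4%. Asked for a change of more than 1.5-fold (edgeR's glmTreat), Sqstm1 was the single gene of the 10 still called, against 32.3% of all tested genes. Without scaling beyond library size the median of all genes moved to 0.34, the share of higher genes among those called went to 74.3% in place of 52.0%, and the split of the 10 genes was 4 higher and 2 lower.

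In the 3SL-labelled against the Pam3CSK4-labelled libraries 7 of the 10 genes were called, 5 higher (Sqstm1, Atg5, Becn1, Gabarapl2 and Gabarap) and 2 lower (Atg7 and Map1lc3b). Of all tested genes 71.5% were called in that comparison, 34.7% higher and 36.8% lower, and the groups did not overlap for 73.1% of all genes and for 8 of the 10. The median log2 change was 0.22 over the 10 genes and -0.02 over all tested genes. This comparison and the one before it share the Pam3CSK4-labelled libraries, so their opposite signs are not separate evidence. Under the 1.5-fold test Sqstm1 and Atg7 were called, against 29.8% of all tested genes. Without scaling beyond library size the median of all genes moved to -0.29, the share of higher genes among those called went to 27.6% in place of 48.5%, and the split of the 10 genes was 2 higher and 5 lower.

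**Figure D3:**
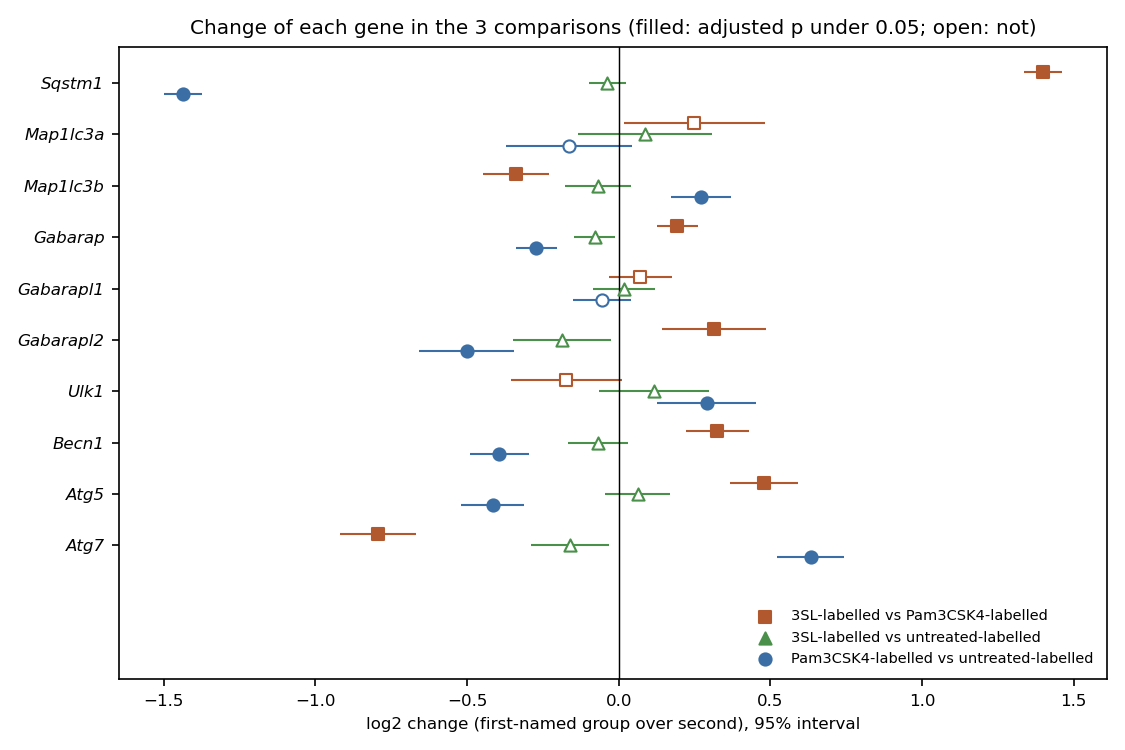
Log2 change of each gene with its 95% interval (horizontal axis) in the 3 comparisons; filled symbols have an adjusted p under 0.05 and open symbols do not. Sqstm1 stands apart at -1.44 for the Pam3CSK4-labelled against the untreated-labelled libraries and 1.40 for the 3SL-labelled against the Pam3CSK4-labelled libraries, while all 10 intervals between the 3SL-labelled and untreated-labelled libraries lie between -0.35 and 0.31; without scaling beyond library size Gabarap, Gabarapl1 and Map1lc3a change sign in the comparisons with the Pam3CSK4-labelled libraries.

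Between the 3SL-labelled and the untreated-labelled libraries no member was called by edgeR or by DESeq2, while edgeR called 8.94% of all tested genes, 3.83% higher and 5.11% lower. Under the 1.5-fold test no member was called either, against 0.0523% of all tested genes. At an unadjusted p under 0.05 there were 3 members, Atg7 at -0.16 on the log2 scale (SE 0.0624, adjusted p = 0.115), Gabarap at -0.08 (SE 0.0327, adjusted p = 0.151) and Gabarapl2 at -0.19 (SE 0.0787, adjusted p = 0.155). Atg7 was also the single member whose libraries did not overlap between these groups, with all 3 of the 3SL-labelled libraries below all 3 of the untreated-labelled ones, against 24.0% of all tested genes. Gabarapl2 passed the threshold without library C2 (adjusted p = 0.0441) and Gabarap without B2plus (adjusted p = 0.0429). The number of all tested genes called was 1025, and it was 626 without B2 and 683 without A2plus. The 95% intervals of the 10 log2 changes ran from -0.35 to 0.31, and a p that misses the threshold does not show equal levels.

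The rest of the pathway was followed in 8 lists with 72 further genes, all of which passed the filter. In the Pam3CSK4-labelled against the untreated-labelled libraries 59 of the 72 genes were called, 45.8% of them higher, against 75.0% called among all tested genes. Scaled by library size alone, 60 were called, 71.7% of them higher, so the splits below are those of the TMM scaling, and splits under library size alone are given where they turn. Of the 4 other genes of the ULK1 complex 2 were higher and 2 lower. Ulk2, the paralog of Ulk1, rose by 0.59 on the log2 scale (SE 0.045) and Atg13, the adaptor of the complex, by 0.40 (SE 0.058), while Rb1cc1, which encodes the scaffold FIP200, fell by 0.56 (SE 0.057). Of 7 genes of the class III phosphatidylinositol 3-kinase complex and its partners other than Becn1, 5 were higher and 1 lower, with a median of 0.46. Uvrag, which directs the complex to endosomes, rose by 1.25 (SE 0.056), Rubcn, which encodes its inhibitor Rubicon, by 0.73 (SE 0.066), and Pik3c3, the catalytic subunit, by 0.46 (SE 0.062). The adjusted p values of these 6 genes ran from 1.86e-17 to 7.15e-07 in edgeR's test.

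Of 9 genes of the conjugation systems and the ATG4 proteases other than Atg5 and Atg7, 1 was higher and 6 lower in the Pam3CSK4-labelled than in the untreated-labelled libraries, but 5 were higher and 2 lower without scaling beyond library size. The proteases Atg4a and Atg4d, which trim ATG8-family proteins, fell by 1.07 (SE 0.081) and 0.81 (SE 0.085) on the log2 scale and also fell under the other scalings. Atg16l1, which encodes the partner of ATG5, fell by 0.42 (SE 0.063, adjusted p = 9.03e-07) and lost its call without scaling beyond library size (adjusted p = 0.108). Of 10 genes for membrane supply and lipid transfer 4 were higher and 3 lower, with 2 higher when library B2 was left out, and 8 higher and 2 lower without scaling beyond library size. Vmp1, a scramblase gene needed for autophagosome formation, had 241, 246 and 270.0 CPM in the 3SL-labelled, 104, 100.0 and 101 CPM in the Pam3CSK4-labelled and 266, 257 and 246 CPM in the untreated-labelled libraries. Its level fell by 1.34 (SE 0.044) in the Pam3CSK4-labelled against the untreated-labelled libraries, that of Atg9a, the scramblase of the seed vesicles, fell by 1.02 (SE 0.054), and Atg9b, at no more than 5.76 CPM, rose by 2.52 (SE 0.273).

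Of 11 cargo receptor genes other than Sqstm1, 4 were higher and 5 lower in the Pam3CSK4-labelled than in the untreated-labelled libraries (6 higher and 3 lower without scaling beyond library size). Bnip3, a mitophagy receptor and a known hypoxia target, had 185, 201 and 190 CPM in the 3SL-labelled, 20.2, 24.3 and 22.9 CPM in the Pam3CSK4-labelled and 182, 195 and 185 CPM in the untreated-labelled libraries. Its log2 change of -3.05 (SE 0.06, adjusted p = 1.8e-26) was larger in size than that of Sqstm1. Tax1bp1, a receptor of ubiquitinated cargo as p62 is, fell by 0.69 (SE 0.035), and Retreg1, a receptor for autophagy of the endoplasmic reticulum, rose by 1.16 (SE 0.051). Among 7 genes of fusion with lysosomes 4 were higher and 2 lower. Plekhm1, an adaptor between ATG8-family proteins and lysosomes, rose by 1.90 (SE 0.057) and Tecpr1, a tether, by 1.43 (SE 0.051), and Vamp8, a fusion SNARE, fell by 0.76 (SE 0.038).

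Among 15 regulators in the mTORC1, AMPK and TFEB families 6 were higher and 7 lower in the Pam3CSK4-labelled than in the untreated-labelled libraries (9 higher and 2 lower without scaling beyond library size). Trp53inp1, whose protein binds ATG8-family proteins, rose by 2.23 (SE 0.105), and the transcription factor genes Mitf and Tfe3 fell by 1.58 (SE 0.046) and 0.78 (SE 0.038). Tfeb, the other transcription factor gene of their family in this list and named after its values were seen, rose by 0.87 (SE 0.08, adjusted p = 1.31e-10). The list with the lowest median, at -1.15, was that of KEAP1, NRF2 and NRF2 target genes, in which 1 of 9 was higher and 6 were lower. Slc7a11, the cystine importer, had 885, 915 and 1006 CPM in the 3SL-labelled, 6.96, 7.29 and 5.43 CPM in the Pam3CSK4-labelled and 955, 933 and 919 CPM in the untreated-labelled libraries, a log2 change of -7.14 (SE 0.093, adjusted p = 3.83e-33) for the Pam3CSK4-labelled against the untreated-labelled libraries. Txnrd1, a thioredoxin reductase, fell by 1.78 (SE 0.028) and Hmox1, which degrades heme, by 1.31 (SE 0.03). Whether NRF2 has a part in the change of Sqstm1 was not tested.

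**Figure D4:**
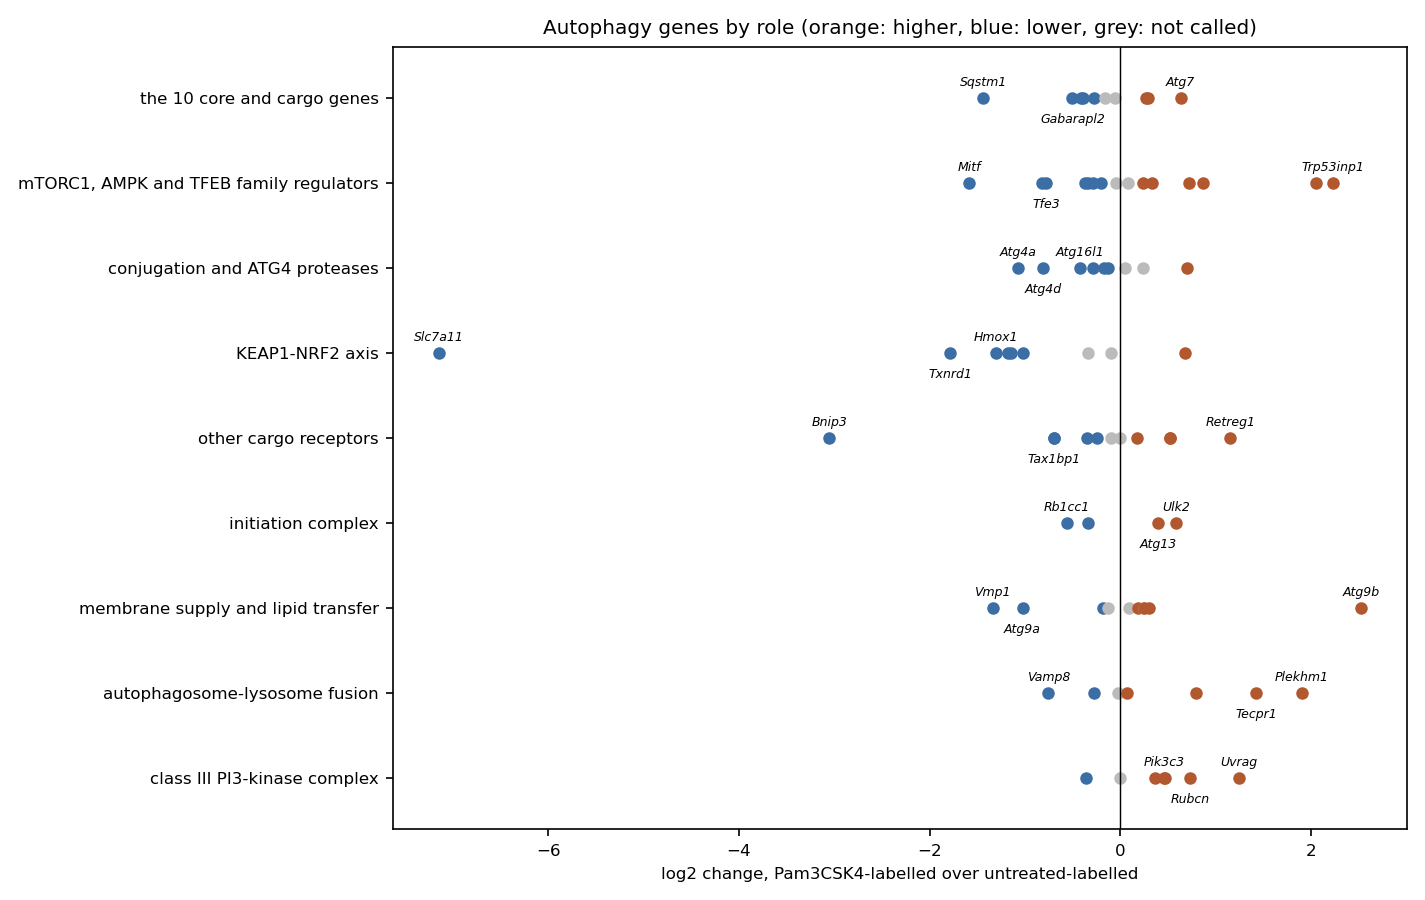
Log2 change of the Pam3CSK4-labelled against the untreated-labelled libraries (horizontal axis) for the 10 genes and for 72 further genes in 8 lists by role; each point is a gene, orange where called higher, blue where called lower and grey where not called. Sqstm1 lies at -1.44 and the lists hold points on both sides of 0; without scaling beyond library size the points move to the right by the shift of the median of all genes, to 0.34.

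Of the pathway genes, the 3SL-labelled against the Pam3CSK4-labelled libraries gave calls for 56 of the 72, 57.1% of them higher (37.3% without scaling beyond library size), against 71.5% called among all tested genes. Between the 3SL-labelled and the untreated-labelled libraries 12 of the 72 were called, 8.94% being the share among all tested genes, and 7 were called without library A2. None of the ULK1 complex, class III kinase, conjugation or membrane supply genes was among the 12. The NRF2 list held 6 of them, 5 higher and 1 lower. The lower one, Nfe2l2, which encodes NRF2 and is named after its values were seen, was at -0.10 (SE 0.032, adjusted p = 0.0407) and was not called without A2, B2, C2, D1, D3, A2plus or B2plus. Hmox1 had 4423, 4631 and 4356 CPM in the 3SL-labelled and 3263, 3498 and 3418 CPM in the untreated-labelled libraries, a log2 change of 0.40 (SE 0.03, adjusted p = 3.47e-10). Trp53inp1 rose by 0.58 (SE 0.133, adjusted p = 0.00503), and remained called with each library left out in turn. Sqstm1, itself a known NRF2 target, was not called in this comparison.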

How the data were processed

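RNA sequencing was analysed for 9 libraries of mouse bone marrow-derived macrophages, prepared per the labels' protocols from TRIzol-extracted RNA with the NEBNext Ultra RNA kit. The authors deposited 1 table of unnormalized counts for each gene, of which 15 further columns were not used. The human build hg38 is named per the submitters' processing notes, beside featureCounts, Subread and HISAT2 2.1.0 with no settings, although the identifiers are mouse Ensembl identifiers, so the build and the strand setting behind the counts are not settled. Coordinates and exon overlaps come from GENCODE M21 on GRCm38, and sequences from RefSeq on GRCm38.p6. Stretches that match other genes, which need not be copies of the gene, come from BLAST 2.17.0 (at least 95% identity over 100 bases).

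The test was edgeR 4.0.16 (R 4.3.3): filterByExpr (which kept 52.1% of genes), TMM scaling, 1 quasi-likelihood fit with a mean per group over all 9 libraries, and Benjamini-Hochberg adjustment over all 11469 tested genes at 0.05. The fit was also run on simulated data in which few genes changed, balanced between higher and lower. That setting differs from these comparisons, so it does not bear on the choice of scaling. CPM values use library sizes scaled by TMM. Within each group, libraries were further apart than counting noise (chi-square per degree of freedom of 1.83 to 2.91), so none was taken for a library deposited in duplicate. Alternatives were DESeq2 1.42.0 and its size factors, library size only, no filter, a 1.5-fold minimum, the 2 groups alone, equal depth, each library left out, and a block by library letter. Intervals cover counting and replicate error of these libraries only.

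The 10 genes, the 8 pathway lists and the 6 marker lists were chosen with earlier results of these data known. Of each pathway list the text names the 3 genes with the smallest p between the Pam3CSK4-labelled and untreated-labelled libraries, and any gene called between the 3SL-labelled and untreated-labelled libraries with a log2 change of at least 0.5 in size; Il1b checks the labels, and Tnf, by the same rule, stood at 1267 ± 58.2 CPM in the 3SL-labelled, 18.4 ± 0.670 CPM in the Pam3CSK4-labelled and 1704 ± 46.0 CPM in the untreated-labelled libraries (SD, n = 3 each). Other genes are said to be named after their values were seen.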

Additional observations from a re-analysis of the deposited data

How the results depend on the processing

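With library sizes left without further scaling, 6 log2 changes of single genes turned their sign. For the Pam3CSK4-labelled against the untreated-labelled libraries these were Map1lc3a (0.15), Gabarap (0.041) and Gabarapl1 (0.258), and for the 3SL-labelled against the Pam3CSK4-labelled libraries Map1lc3a (-0.024), Gabarap (-0.081) and Gabarapl1 (-0.202). Between the 3SL-labelled and the untreated-labelled libraries the change of Sqstm1 was then 0, in place of -0.04. Leaving out each library in turn, the log2 change between the 3SL-labelled and untreated-labelled libraries of Gabarapl1 ran from -0.015 (without A2plus) to 0.047 (without A2) and was also negative, at -0.009, without C2. A minimum change of 1.5-fold left 3699, 3413 and 6 genes called in the comparisons of the Pam3CSK4-labelled with the untreated-labelled, the 3SL-labelled with the Pam3CSK4-labelled and the 3SL-labelled with the untreated-labelled libraries, and 1, 2 and 0 of the 10 genes. Leaving out each library in turn gave 626 to 1038 called genes between the 3SL-labelled and the untreated-labelled libraries, and 0 to 1 of the 10 genes. Sqstm1 kept its call and sign in both comparisons with the Pam3CSK4-labelled libraries under every setting tried, with log2 changes of -1.47 to -1.13 and 1.13 to 1.42. The cause of these shifts was not tested.

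The letters A, B and C recur in the 3SL-labelled and the untreated-labelled libraries. The deviations of same-letter libraries from their group means correlated at -0.017 for A, 0.042 for B and 0.008 for C. B2plus correlated best with B2, while A2plus correlated best with C2 (0.023) and C2plus with A2 (0.02). All these values are small, so they do not settle whether the letters pair the samples, and the letters were not taken to do so. A replicate block by letter, fitted to the 3SL-labelled and untreated-labelled libraries alone, called 951 genes, and 0 of the 10 genes as before. The 1025 of the main fit came from all 9 libraries, so these counts differ in the libraries used as well as in the block. The counts for the pathway lists under these settings were added after the data were seen. The depth of the shallowest library, A2plus, puts 3 counts at 0.401 CPM, far under each of the 10 genes, so depth limits the size of change that can be called, not detection.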

Other observations

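The other 4 marker lists, of dendritic, stromal, lymphocyte, and erythroid and mast cells, summed to lower levels than the neutrophil and progenitor list in all 9 libraries. Dendritic cell markers summed to 5.78 to 5.90 CPM in the 3SL-labelled, 0.960 to 3.10 CPM in the Pam3CSK4-labelled and 7.53 to 9.44 CPM in the untreated-labelled libraries. Stromal markers summed to 8.15 to 10.3 CPM in the 3SL-labelled, 2.07 to 2.88 CPM in the Pam3CSK4-labelled and 12.1 to 13.4 CPM in the untreated-labelled libraries. Lymphocyte markers summed to 9.35 to 11.4 CPM in the 3SL-labelled, 10.9 to 13.4 CPM in the Pam3CSK4-labelled and 10.3 to 12.03 CPM in the untreated-labelled libraries. Erythroid and mast cell markers summed to 1.96 to 3.51 CPM in the 3SL-labelled, 4.40 to 5.35 CPM in the Pam3CSK4-labelled and 2.65 to 3.86 CPM in the untreated-labelled libraries, with Mcpt4 at 0 counts in all 3 groups. Only 1 gene passed the filter in each of the stromal, lymphocyte, and erythroid and mast cell lists, namely Pdgfrb, Cd4 and Kit. Pdgfrb averaged 6.90 CPM in the 3SL-labelled, 1.12 CPM in the Pam3CSK4-labelled and 10.3 CPM in the untreated-labelled libraries. Of the 6 dendritic cell markers 3 passed, namely Ccr7, Siglech and Xcr1. All 3 were called lower in the Pam3CSK4-labelled than in the untreated-labelled libraries. In the 3SL-labelled, Pam3CSK4-labelled and untreated-labelled libraries Ccr7 averaged 3.15, 0.159 and 3.98 CPM. Siglech averaged 0.820, 0.611 and 1.94 CPM and Xcr1 0.744, 0.192 and 1.05 CPM in the same groups. Flt3, too low to pass the filter, averaged 0.433, 0.725 and 0.675 CPM. These sums thus do not stand for each marker.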
